A study of Mus musculus with 30 samples.

Results

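Epithelial-mesenchymal transition (EMT) genes were followed in mouse embryonic stem cells (ESCs) that carried an shRNA against a mitotic or checkpoint kinase or a phosphatase or phosphatase subunit. The group holds 10 genes, named with earlier results of these data known and matched to probes by symbol: the epithelial junction genes Cdh1, Cldn6 and Cldn7, the mesenchymal genes Cdh2, Vim, Fn1 and Sparc, and the transcriptional repressors Snai1, Snai2 and Zeb2. Of these, 8 were matched to 11 of the 25697 probes of the array, and Fn1 and Snai2 were not analysed here. A probe was tested when its detection p-value was under 0.05 on at least 3 arrays, which held for 8 of the 11 probes and 7 of the 8 genes, out of 15151 tested probes in all.

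In an EMT, cells that adhere as a sheet lose their junctions and become migratory. E-cadherin, the product of Cdh1, ties neighbouring cells together at adherens junctions, and claudins such as those of Cldn6 and Cldn7 form the strands of tight junctions. Snail, Slug and the Zeb proteins bind E-box sequences and repress Cdh1 and other junction genes, while N-cadherin (Cdh2), the intermediate filament vimentin (Vim) and the matrix proteins fibronectin (Fn1) and SPARC mark the mesenchymal state. Undifferentiated mouse ESCs are rich in E-cadherin, and the embryo runs an EMT at the primitive streak, where mesoderm forms.

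All samples were rescue clones of the rtTA-expressing mouse ESC line Ainv15. In Bub1b_R, Chek1_R, Ppm1g_R and Ppp2r1b_R a lentivirus carried both an shRNA against the endogenous mRNA and a doxycycline (Dox)-inducible copy of that gene which the shRNA does not recognize, and Control_R was the control clone. Bub1b encodes a spindle checkpoint kinase, Chek1 a DNA damage checkpoint kinase, Ppm1g a protein phosphatase, and Ppp2r1b a scaffold subunit of protein phosphatase 2A. Each clone was sampled with 1 μg/ml Dox, when the rescue copy is on, and after 5 days without Dox, with 3 arrays for each of these 10 conditions. Clones were kept in LIF on mouse embryonic fibroblasts, and the study's methods describe removal of those feeders by plating before the cells were grown with or without Dox. The study's methods describe several independent clones for each rescue gene, while the labels name the rescue gene and a replicate number, so the 3 arrays of a condition may be separate clones, separate cultures or repeat arrays. The p-values measure only the spread between these arrays, which may be technical. In bulk RNA, more RNA per cell and more cells of a type cannot be told apart.

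The shRNA target sites define the 4 shRNA clones and are therefore shown, each read 5′ to 3′ from the construct list of the study. The rescue copies of Bub1b and Chek1 lack the site, and those of Ppm1g and Ppp2r1b carry silent changes in it.
Bub1b: gcacacttagacacatcagca
Chek1: cccatgtagtagtatcacttt
Ppm1g: gccttgtactgtgccaaatat
Ppp2r1b: gctccgtctcaacagtattaa

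The upstream sequences of Snai1, Zeb2 and Vim are shown because these were the 3 members called higher after Dox withdrawal. Each run holds the 250 bases before the start site in RefSeq (GRCm38.p6), read on the strand of the gene, and capitals mark an E-box, written CAGGTG or, on the other strand, CACCTG.
Snai1, chr2:167537945-167538194, plus strand: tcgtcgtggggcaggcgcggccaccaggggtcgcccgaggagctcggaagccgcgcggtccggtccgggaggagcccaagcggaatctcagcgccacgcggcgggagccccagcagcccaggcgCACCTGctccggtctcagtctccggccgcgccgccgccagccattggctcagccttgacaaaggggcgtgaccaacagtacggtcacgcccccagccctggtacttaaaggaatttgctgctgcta
Zeb2, chr2:45117443-45117692, minus strand: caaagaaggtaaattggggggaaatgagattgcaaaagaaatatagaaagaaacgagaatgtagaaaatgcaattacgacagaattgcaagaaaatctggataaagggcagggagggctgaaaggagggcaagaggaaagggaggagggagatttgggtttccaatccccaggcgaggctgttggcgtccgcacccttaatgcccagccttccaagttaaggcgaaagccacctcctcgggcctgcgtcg
Vim, chr2:13574061-13574310, plus strand: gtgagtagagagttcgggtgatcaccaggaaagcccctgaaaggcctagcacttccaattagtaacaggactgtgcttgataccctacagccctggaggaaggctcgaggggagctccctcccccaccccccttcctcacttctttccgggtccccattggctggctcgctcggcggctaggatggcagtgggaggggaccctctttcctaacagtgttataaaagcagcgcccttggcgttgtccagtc

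Windows of this kind were taken for 6 of the 10 members, with several start sites for Zeb2 and Cldn7. Member windows on the chromosome of Cdh2 were left out, while the windows of all genes include that chromosome. An E-box was present in 3 of these 10 windows, against 17.2% of all 32851 windows of the same length. Counted by gene, 3 of the 6 members held an E-box. Some windows of Zeb2 overlap, so the windows are not independent, and only the first Zeb2 window is printed above. The E-box begins at position −126 from the start site of Snai1 and −93 from that of Cldn6, and at −97 and −57 from the second start site of Cldn7. The windows of Zeb2, Vim, Sparc and the first start site of Cldn7 hold none, which says only that these letters are not in these bases.

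Between 11733 and 13685 probes were detected per array. The replicates of a condition correlated at 0.990 to 0.997 over the tested probes. The arrays fell into sets by signal: the lowest signal called detected lay between 12.9 and 20.9 for the 12 arrays of Control_R and Bub1b_R and between 27.8 and 58.1 for the 18 arrays of the other clones, so that for Chek1_R, Ppm1g_R and Ppp2r1b_R a difference from Control_R and one between the array sets cannot be told apart. The Control_R arrays also come from earlier sample records than those of the shRNA clones. A comparison of any clone with Control_R, Bub1b_R included, therefore also sets an earlier deposit against a later one. Levels of Bub1b_R set beside those of Chek1_R, Ppm1g_R or Ppp2r1b_R likewise cross the array sets, as do the orders of the 10 conditions below. Changes on Dox withdrawal lie within a set and within a deposit. All 9 of the ESC markers with a probe, Pou5f1, Nanog and Sox2 among them, were detected on all 30 arrays. Of the targeted genes, Ppm1g fell by 1.25 (log2) in Ppm1g_R on Dox withdrawal, Bub1b and Ppp2r1b differed by −0.14 and 0.20 in their own clones and were not called, and Chek1 was 0.71 higher without Dox in Chek1_R. In the same arrays the streak gene T was 4.44 higher and the ESC gene Utf1 0.80 lower without Dox (a change of −0.80). For a probe that reads the rescue copy the Chek1 value goes against the label, so Chek1_R below stands for the arrays so labelled. The files do not say whether each probe also reads the rescue copy.

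Dox withdrawal raised the repressor Snai1 in Bub1b_R and in the arrays labelled Chek1_R, Zeb2 in these and in Ppp2r1b_R, and the filament gene Vim in the same 3 clones. No member was called lower in any clone, and none was called in Control_R. The junction genes Cdh1, Cldn6 and Cldn7 were called in no clone. A change was called at an adjusted p under 0.05 (limma, Benjamini-Hochberg over all tested probes) and at least 1.5-fold, with a gene of several probes counted by its brightest tested probe. All levels below are normalized log2 intensities of 1 array each, and all changes are differences of their means on that log2 scale.

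By this rule 3 of the 7 tested members rose in Bub1b_R, where 2.94% of all tested probes rose and 2.67% fell. In the arrays labelled Chek1_R 3 rose, beside 4.49% of all probes higher and 4.77% lower. In Ppm1g_R 0 members were called, with 2.3% of probes higher and 2.07% lower, and 3 members had an adjusted p under 0.05 at less than 1.5-fold. In Ppp2r1b_R 2 rose, beside 2.77% of probes higher and 2.05% lower. In Control_R 0 were called, with 0.706% of probes higher and 0.396% lower, and 2 members, Snai1 and Cldn6, had an adjusted p under 0.05 at less than 1.5-fold. The median change over the 7 members was 0.32 in the arrays labelled Chek1_R as in Bub1b_R, 0.21 in Ppp2r1b_R, 0.14 in Ppm1g_R and 0.043 in Control_R, where the median over all probes was between −0.016 and 1.37e-05.

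**Figure D1:**
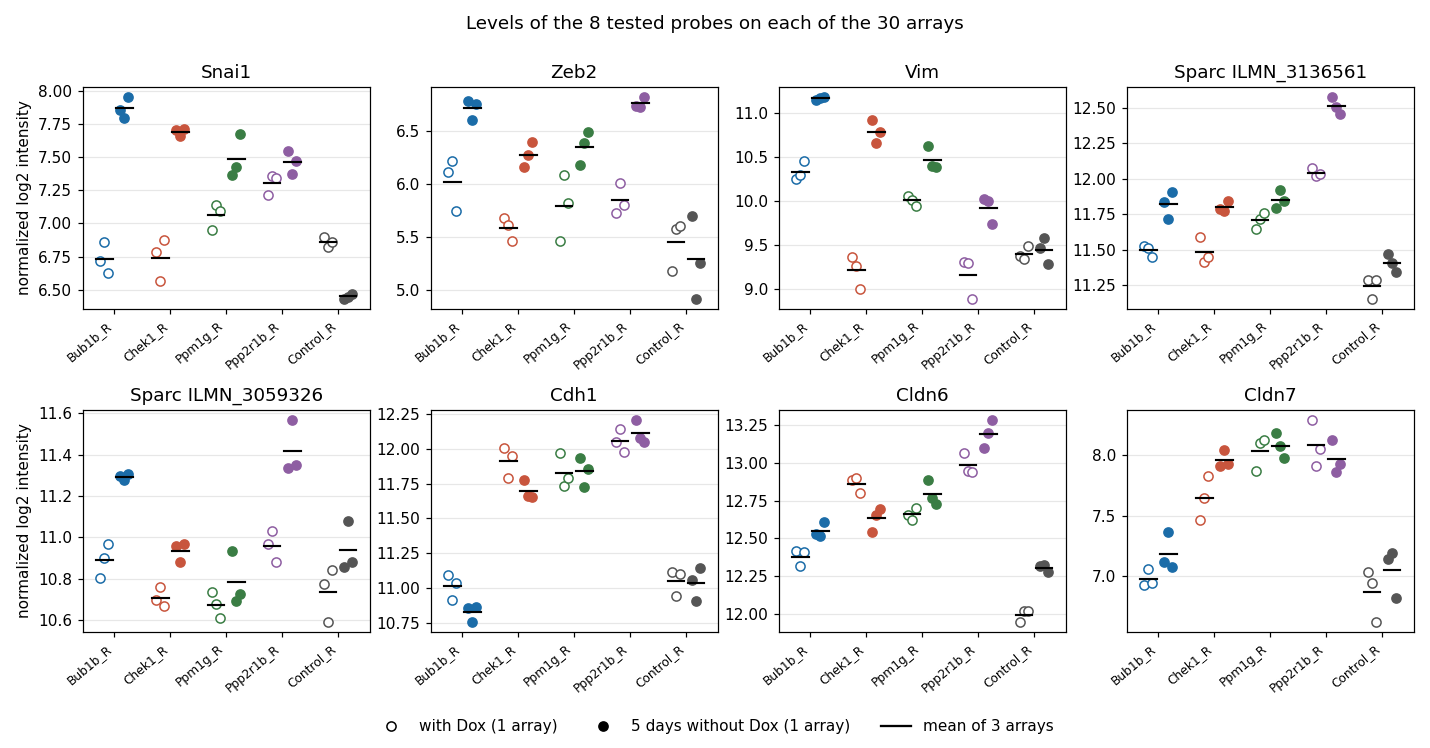
Normalized log2 intensity of the 8 tested probes on each array (open points with Dox, filled points after 5 days without Dox, bars the mean of 3 arrays). Snai1, Zeb2 and Vim lie higher without Dox in the 4 shRNA clones, with no overlap between the Dox conditions, while Cdh1 and Cldn7 differ mainly between clones. The gap of Snai1 in Ppp2r1b_R is small, and how often other probes separate in this way was not counted.

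Snai1 encodes Snail, the zinc finger repressor that starts EMT in the gastrulating embryo. In Bub1b_R its levels with Dox were 6.72, 6.86 and 6.62, and without Dox 7.86, 7.80 and 7.95. Levels on the arrays labelled Chek1_R were 6.78, 6.57 and 6.88 with Dox and 7.71, 7.66 and 7.71 without. In both clones every array without Dox lay above every array with Dox, and the changes were 1.14 ± 0.084 (SE; 2.20-fold, adjusted p = 4.41e-10) and 0.95 ± 0.084 (1.93-fold, adjusted p = 2.98e-09).

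The other clones moved less. In Ppm1g_R Snai1 read 6.95, 7.14 and 7.10 with Dox and 7.36, 7.43 and 7.68 without, a change of 0.43 (adjusted p = 5.33e-04) that stayed under 1.5-fold. In Ppp2r1b_R it read 7.22, 7.35 and 7.34 with Dox and 7.55, 7.37 and 7.47 without, a change of 0.16 that did not pass the test (adjusted p = 0.174). These conditions did not overlap either, although in Ppp2r1b_R the gap between them was small. Control_R went the opposite way, from 6.90, 6.83 and 6.86 with Dox to 6.43, 6.45 and 6.47 without, a change of −0.41 (adjusted p = 0.00321) under 1.5-fold.

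Set against the change in Control_R, Snai1 was 1.55 higher in Bub1b_R (2.93-fold, adjusted p = 7.53e-09), 0.84 in Ppm1g_R (adjusted p = 3.80e-05) and 1.36 in the arrays labelled Chek1_R (adjusted p = 7.36e-09), all called. In Ppp2r1b_R the difference was 0.57 (adjusted p = 0.00383), just under 1.5-fold, and it was past that limit, at 0.59 to 0.62, without Ppp2r1b_R +Dox replicate 2 or 3, Ppp2r1b_R −Dox replicate 2 or Control_R +Dox replicate 2. The fall of Snai1 in Control_R is part of each of these differences. A moderated F-test of the withdrawal changes in the 4 clones gave an adjusted p of 3.09e-06 for Snai1, a test that 24% of all probes passed.

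The order of the 10 conditions by Snai1 level ran from Bub1b_R without Dox (7.87 ± 0.079, SD, n = 3) through the arrays labelled Chek1_R (7.69), Ppm1g_R (7.49) and Ppp2r1b_R (7.46) without Dox to the conditions with Dox, and ended at Control_R without Dox (6.45 ± 0.019). The ranges of 4 of the 9 neighbouring pairs overlapped, among them Chek1_R and Ppm1g_R without Dox, Ppm1g_R and Ppp2r1b_R without Dox, and Control_R, Chek1_R and Bub1b_R with Dox. A second probe of Snai1 (ILMN_2904765) was detected on 0 of 30 arrays, with signals between −10.8 and 14.8, so the Snai1 values rest on the probe ILMN_1241355.

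Zeb2 encodes a zinc finger and homeodomain repressor that also binds E-boxes. Its signal was close to the detection limit, and the probe ILMN_2419650 was detected on 24 of 30 arrays. In Bub1b_R it read 6.11, 6.22 and 5.74 with Dox and 6.79, 6.60 and 6.76 without. In Ppp2r1b_R the levels were 5.73, 6.01 and 5.80 with Dox and 6.74, 6.73 and 6.83 without. The arrays labelled Chek1_R read 5.68, 5.61 and 5.46 with Dox and 6.16, 6.28 and 6.40 without. No array with Dox reached the level of an array without Dox in these clones, and the changes were 0.69 ± 0.17 (SE; adjusted p = 0.00289) in Bub1b_R, 0.70 (adjusted p = 0.00199) in the arrays labelled Chek1_R and 0.92 (1.89-fold, adjusted p = 2.43e-04) in Ppp2r1b_R.

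In Ppm1g_R Zeb2 read 5.46, 6.09 and 5.82 with Dox and 6.18, 6.39 and 6.50 without, a change of 0.56 (adjusted p = 0.0153) under 1.5-fold. In Control_R it read 5.18, 5.57 and 5.60 with Dox and 5.70, 4.91 and 5.25 without, and the conditions overlapped (−0.16, 95% interval −0.51 to 0.18). The call in Bub1b_R was lost without Bub1b_R +Dox replicate 3 (0.55), and Ppm1g_R came to be called without Ppm1g_R +Dox replicate 2 (0.71) or Ppm1g_R −Dox replicate 1 (0.65). Without background correction all 3 calls were lost, at 0.87, 1.00 and 1.16 in Bub1b_R, Chek1_R and Ppp2r1b_R, and with an offset of 50 those in Bub1b_R (0.49) and Chek1_R (0.45). The methods' t-test lost the call in Bub1b_R.

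Relative to Control_R the Zeb2 change was called in all 4 clones: 1.08 in Ppp2r1b_R (2.11-fold, adjusted p = 0.00544), 0.72 in Ppm1g_R (adjusted p = 0.0445), 0.86 in Bub1b_R (adjusted p = 0.0168) and 0.86 in the arrays labelled Chek1_R (adjusted p = 0.0109). The 95% intervals of these 4 differences ran from 0.24 to 1.21 in Ppm1g_R up to 0.59 to 1.56 in Ppp2r1b_R. The F-test among the clones did not pass for Zeb2 (adjusted p = 0.659), and no difference between clones was detectable at this precision. The call in Bub1b_R was lost without Bub1b_R +Dox replicate 3 (0.72) or Control_R −Dox replicate 2 (0.67), and that in Ppm1g_R without any of 4 arrays of Ppm1g_R or 4 of Control_R (0.54 to 0.74). All 4 calls were lost by the methods' t-test and without background correction, where the differences rose to 1.72, 1.85, 1.63 and 2.01 in Bub1b_R, Chek1_R, Ppm1g_R and Ppp2r1b_R. With an offset of 50 those in Bub1b_R (0.57), Chek1_R (0.53) and Ppm1g_R (0.45) were lost, and with only the arrays compared those in Bub1b_R, Ppm1g_R and Ppp2r1b_R. In Control_R without Dox 2 of the 3 arrays did not detect Zeb2, so part of each difference is set by values at background.

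In the order of the conditions the 4 shRNA clones without Dox held the first 4 places, from Ppp2r1b_R (6.77 ± 0.054, SD) and Bub1b_R (6.72) to Ppm1g_R (6.35) and the arrays labelled Chek1_R (6.28), and both conditions of Control_R came last. Of the 9 neighbouring pairs 8 overlapped, and only Bub1b_R and Ppm1g_R without Dox did not. The other Zeb2 probe, ILMN_1232121, was detected on 0 of 30 arrays (signal −31.0 to 4.5), and the probes of Zeb2 thus disagree.

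Vim encodes vimentin, the intermediate filament of mesenchymal cells and fibroblasts, which cultured ESCs also express. In the arrays labelled Chek1_R it read 9.37, 9.26 and 9.01 with Dox and 10.92, 10.66 and 10.79 without. In Bub1b_R it read 10.26, 10.29 and 10.45 with Dox and 11.14, 11.17 and 11.18 without. In Ppp2r1b_R it read 9.30, 9.30 and 8.89 with Dox and 10.02, 10.00 and 9.74 without. The Dox conditions were apart in each of these clones, with changes of 1.58 ± 0.11 (SE; 2.98-fold, adjusted p = 6.00e-11), 0.83 (1.78-fold, adjusted p = 4.27e-06) and 0.75 (1.69-fold, adjusted p = 2.36e-05).

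Ppm1g_R went from 10.06, 10.02 and 9.94 to 10.62, 10.40 and 10.39, a change of 0.46 (adjusted p = 0.00355) under 1.5-fold. Control_R read 9.37, 9.35 and 9.49 with Dox and 9.47, 9.58 and 9.28 without, with overlap and a change of 0.043 (95% interval −0.19 to 0.27). Relative to Control_R the change was called at 1.53 in the arrays labelled Chek1_R (adjusted p = 1.27e-07), 0.79 in Bub1b_R (adjusted p = 0.00147) and 0.71 in Ppp2r1b_R (adjusted p = 0.00627), and was 0.42 in Ppm1g_R (adjusted p = 0.0872). The Ppp2r1b_R difference fell to 0.58, under 1.5-fold, without Ppp2r1b_R +Dox replicate 3. The 4 changes differed among themselves (F-test, adjusted p = 8.71e-05).

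Starting levels of Vim also differed between clones: Bub1b_R with Dox (10.33 ± 0.11, SD) and Ppm1g_R with Dox (10.01) already lay above Ppp2r1b_R after withdrawal (9.92), although the ranges of the last 2 overlapped. Bub1b_R without Dox was highest (11.17 ± 0.020), and Ppp2r1b_R with Dox lowest (9.16 ± 0.24), not separated from Chek1_R with Dox. Bub1b_R and Ppp2r1b_R lie in different array sets, so clone and array set cannot be told apart between them.

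Sparc encodes a secreted protein that binds collagen and modulates contacts between cell and matrix. It was read by 2 probes detected on all 30 arrays, and neither was called in any clone on withdrawal. The brighter one (ILMN_3136561) was higher without Dox by 0.32 ± 0.062 (SE) in Bub1b_R, 0.32 in the arrays labelled Chek1_R and 0.47 in Ppp2r1b_R, each with an adjusted p under 0.05 and a fold under 1.5. In Ppm1g_R and Control_R its changes of 0.14 and 0.16 did not pass (adjusted p = 0.0953 and 0.113). The other probe (ILMN_3059326) gave 0.40, 0.23, 0.46, 0.11 and 0.20 in the same order of clones.

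In Ppp2r1b_R the brighter probe read 12.08, 12.02 and 12.03 with Dox and 12.58, 12.50 and 12.46 without, and these were the highest conditions of all 10. Control_R with Dox was lowest (11.24 ± 0.075, SD). The difference from the change in Control_R was 0.31 (adjusted p = 0.0303, under 1.5-fold) in Ppp2r1b_R by the brighter probe and 0.25 (adjusted p = 0.172) by the other, and the F-test among clones gave adjusted p-values of 0.0468 and 0.0705 for these probes. Cdh2, the N-cadherin gene, was detected on 0 of 30 arrays (signal −32.1 to −2.3, lowest detection p 0.440) and was not well above background in any condition, so no fold is given.

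**Figure D2:**
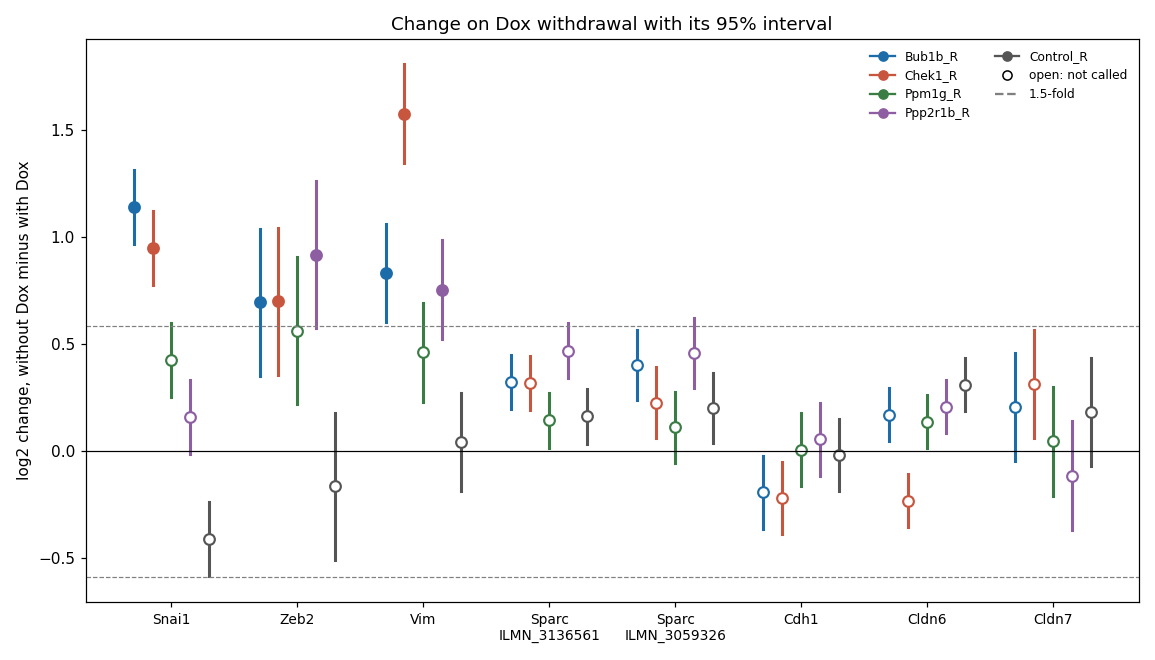
Change on Dox withdrawal (log2, without Dox minus with Dox) of each tested probe in each clone, with its 95% interval from the fit; filled points were called and dashed lines mark 1.5-fold. Snai1 reaches 1.14 in Bub1b_R, Vim 1.58 in the arrays labelled Chek1_R and Zeb2 0.92 in Ppp2r1b_R, while Cdh1 stays between −0.22 and 0.055.

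Cdh1, the gene of E-cadherin, was bright on every array and was called in no clone on withdrawal. In Bub1b_R it read 11.10, 10.92 and 11.04 with Dox and 10.85, 10.76 and 10.86 without, and in the arrays labelled Chek1_R 12.01, 11.79 and 11.95 with Dox and 11.77, 11.66 and 11.66 without. In these 2 clones alone the arrays with and without Dox did not overlap for Cdh1, and how often other probes separate in this way was not counted. Snai1 was called in the same 2 clones, and a link between the genes was not tested. The changes were −0.19 (95% interval −0.36 to −0.022, adjusted p = 0.0945) and −0.22 (−0.39 to −0.050, adjusted p = 0.0445), both under 1.5-fold.

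In Ppm1g_R, Ppp2r1b_R and Control_R the conditions overlapped, with changes of 0.0083 (95% interval −0.16 to 0.18), 0.055 (−0.11 to 0.22) and −0.017 (−0.19 to 0.15). Relative to Control_R the changes of Cdh1 lay between −0.20 and 0.072 and did not pass in any clone (lowest adjusted p = 0.259), and the F-test among clones gave 0.154. The intervals of these 4 differences end at −0.44 and 0.31, within 1.5-fold.

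Cldn6, a claudin of early embryonic epithelia, was bright on every array, and its direction on withdrawal differed between clones. In Control_R it went from 11.95, 12.02 and 12.02 with Dox to 12.32, 12.32 and 12.28 without, a change of 0.31 (adjusted p = 0.00202) under 1.5-fold. The arrays labelled Chek1_R went the other way, from 12.89, 12.90 and 12.80 to 12.54, 12.66 and 12.70 (−0.23, adjusted p = 0.00462). Bub1b_R, Ppm1g_R and Ppp2r1b_R gave 0.17, 0.14 and 0.21. The conditions did not overlap in any of the 5 clones, Control_R included, and how often other probes separate in this way was not counted. The difference between the changes in the arrays labelled Chek1_R and Control_R was −0.54 (adjusted p = 5.38e-05, 1.46-fold, under the limit). The F-test among clones passed (adjusted p = 0.00130).

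Cldn7, a claudin of many adult epithelia, differed between the Dox conditions by 0.31 in the arrays labelled Chek1_R, 0.21 in Bub1b_R, 0.046 in Ppm1g_R, −0.11 in Ppp2r1b_R and 0.18 in Control_R, none of which passed (lowest adjusted p = 0.0547). Relative to Control_R its changes lay between −0.30 and 0.13, and the F-test gave an adjusted p of 0.224. The 95% interval in the arrays labelled Chek1_R (0.061 to 0.57) ended within 1.5-fold.

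Against Control_R, counted over all 7 tested members, the withdrawal change was called in 3, 3, 2 and 2 members for Bub1b_R, Chek1_R, Ppm1g_R and Ppp2r1b_R. The same test called 5.15%, 8.99%, 5.27% and 3.28% of all probes. These comparisons share the 6 arrays of Control_R.

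Each clone was also compared directly with Control_R in the same medium, where the genes called on withdrawal and the junction genes were both called. Without Dox, Snai1 and Zeb2 were called higher in all 4 clones and Vim in 3. The fall of Snai1 in Control_R on withdrawal is part of its differences without Dox. With Dox neither Snai1 nor Zeb2 was called in any clone, where a call also needs 1.5-fold. Cdh1 and Cldn7 were called higher in Chek1_R, Ppm1g_R and Ppp2r1b_R both with and without Dox, and in Bub1b_R in neither condition.

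Without Dox 3, 5, 5 and 6 of the 7 members were called in Bub1b_R, the arrays labelled Chek1_R, Ppm1g_R and Ppp2r1b_R, all higher than Control_R, where 22.6%, 28.8%, 33.5% and 33.7% of all probes were called in either direction. With Dox the counts were 1, 3, 4 and 4, again all higher, beside 12.7%, 17.6%, 29.1% and 28.3% of all probes. With 3 members of 7 called beside 22.6%, and larger shares elsewhere, the comparison itself calls many probes.

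Without Dox the difference of Snai1 from Control_R was 1.42, 1.24, 1.04 and 1.01 in Bub1b_R, Chek1_R, Ppm1g_R and Ppp2r1b_R (adjusted p at most 2.25e-10). For Zeb2 it was 1.43, 0.99, 1.07 and 1.48 (adjusted p at most 1.68e-05), but Control_R without Dox was detected on 1 of 3 arrays, so these sizes are set in part by values at background. Vim was 1.72, 1.34 and 1.02 higher in the first 3 clones and 0.47 higher in Ppp2r1b_R, under 1.5-fold.

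With Dox, Snai1 differed from Control_R by −0.13, −0.12, 0.20 and 0.44, and Zeb2 by 0.57, 0.13, 0.34 and 0.40. The Snai1 difference of 0.44 in Ppp2r1b_R was under 1.5-fold, but its arrays with Dox (7.22 to 7.35) all lay above those of Control_R with Dox (6.83 to 6.90). For Zeb2 the value in Bub1b_R came to be called without Bub1b_R +Dox replicate 3 (0.71) or Control_R +Dox replicate 2 (0.63) or 3 (0.65). Vim was already higher with Dox in Bub1b_R (0.93, adjusted p = 3.06e-07) and in Ppm1g_R (0.60, adjusted p = 5.36e-05), the latter at 0.58 and under 1.5-fold without Ppm1g_R +Dox replicate 1 or Control_R +Dox replicate 2.

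Cdh1 differed from Control_R with Dox by 0.87, 0.78 and 1.01 in Chek1_R, Ppm1g_R and Ppp2r1b_R, and without Dox by 0.66, 0.80 and 1.08. In Bub1b_R the differences were −0.035 and −0.21. Cldn7 differed with Dox by 0.77, 1.16 and 1.21 in the 3 clones and by 0.11 in Bub1b_R, and without Dox by 0.90, 1.02, 0.91 and 0.13. Both genes thus divided the clones in the same way as the array sets described above, and clone and array set cannot be told apart for them.

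Cldn6 was 0.38 to 0.99 higher than Control_R with Dox and was called in the arrays labelled Chek1_R, Ppm1g_R and Ppp2r1b_R. Without Dox it was called in Ppp2r1b_R (0.89, adjusted p = 6.29e-12). The brighter Sparc probe was called in Ppp2r1b_R in both media (0.80 with Dox, 1.11 without), where the other probe gave 0.22 and 0.48 and was not called. When arrays were scaled to a common median in place of quantiles, the median of all probes in Ppp2r1b_R against Control_R moved to −0.18 in both media, and the Cldn6 differences (0.44 without Dox, 0.53 with Dox) and the Sparc difference with Dox (0.42) were under 1.5-fold.

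**Figure D3:**
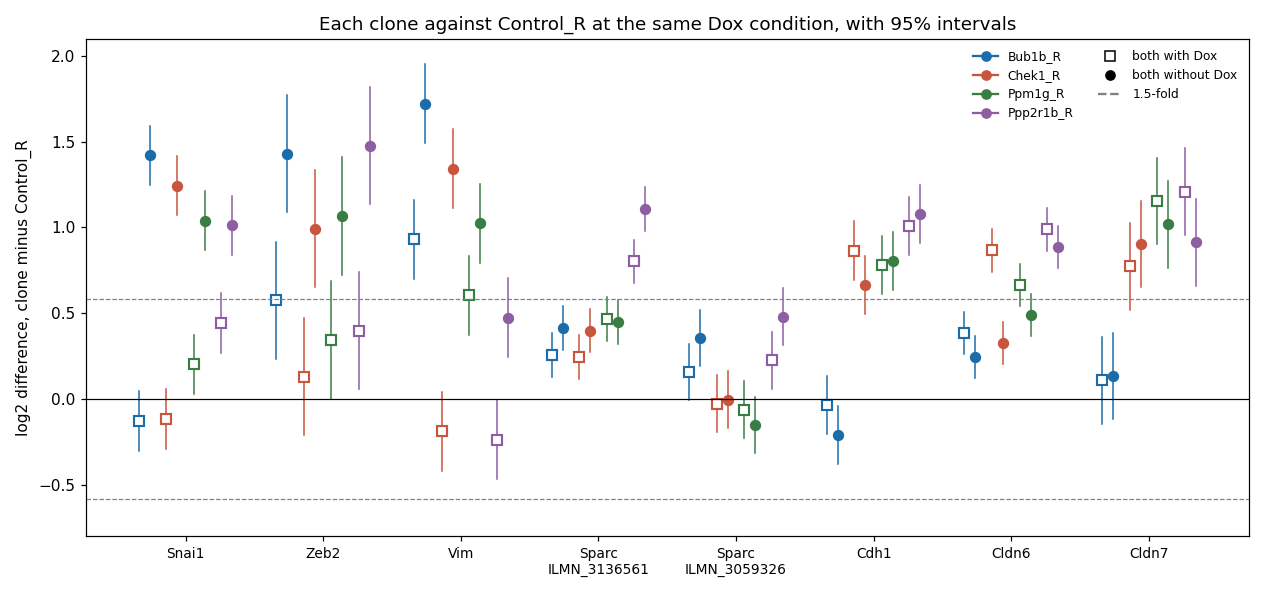
Difference of each clone from Control_R (log2) with both in Dox (open squares) and both without Dox (filled circles), with 95% intervals and dashed lines at 1.5-fold. Snai1 moves from −0.13 to 1.42 in Bub1b_R, while Cdh1 and Cldn7 lie above 1.5-fold in both media in 3 clones and within 0.21 of Control_R in Bub1b_R.

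Other genes of the pathway were described by count, beside the shares of all probes called on withdrawal that are given above for each clone. Of 10 tested EMT transcription factors beyond the members, 3 rose in Bub1b_R, 2 rose and 1 fell in the arrays labelled Chek1_R, 0 were called in Ppm1g_R and in Control_R, and 1 rose in Ppp2r1b_R. Gsc, a homeobox gene of the anterior streak, is also counted among the primitive streak markers below. It rose by 1.35 in Bub1b_R and 1.82 in the arrays labelled Chek1_R. Twist2, a basic helix-loop-helix factor of mesenchyme, rose by 0.79 and 1.11 in these clones, and the forkhead gene Foxc1 by 0.82 in Bub1b_R and 0.63 in Ppp2r1b_R. The last was under 1.5-fold without Ppp2r1b_R +Dox replicate 1 (0.56) or −Dox replicate 2 (0.55), which left 0 factors called in that clone. Zeb1 and Twist1, named for their kinship with the members after their values were seen, were called in no clone.

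Among 25 tested mesenchymal effectors 6 rose in Bub1b_R, 7 rose and 1 fell in the arrays labelled Chek1_R, 11 rose and 1 fell in Ppm1g_R, 4 rose in Ppp2r1b_R and 2 rose in Control_R. Tgfb1 and Tgfb2, ligands that can drive EMT, were called in all 4 shRNA clones: Tgfb1 rose by 1.06, 1.49, 0.64 and 0.97 in Bub1b_R, Chek1_R, Ppm1g_R and Ppp2r1b_R, and Tgfb2 by 0.76, 1.19, 0.95 and 0.61. In Control_R the differences were −0.058 and −0.035. The calls of Tgfb1 in Ppm1g_R (without +Dox replicate 1, 0.55, or −Dox replicate 2, 0.54) and Tgfb2 in Ppp2r1b_R (without +Dox replicate 3 or −Dox replicate 2, 0.56) each depended on single arrays. Cd44, a hyaluronan receptor, rose by 0.88 in the arrays labelled Chek1_R and 1.07 in Ppm1g_R. Ppm1g_R, in which no member was called, thus held 11 called effectors, and its median over the list was 0.50 against 0.41, 0.29, 0.26 and 0.045 in Bub1b_R, the arrays labelled Chek1_R, Ppp2r1b_R and Control_R.

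The epithelial lists were also counted. Of 17 tested tight junction genes 2 fell in Bub1b_R and 1 rose in the arrays labelled Chek1_R, with 0 called in the other clones. Cldn5, a claudin of endothelium, fell by 0.72 and Tjp3, a junction scaffold, by 0.60 in Bub1b_R, and Cldn11 rose by 0.96 in the arrays labelled Chek1_R. Of 7 tested adherens junction genes only Cdh3, the gene of P-cadherin, was called, falling by 1.06 in the arrays labelled Chek1_R. Relative to Control_R the tight junction list had 0 genes called higher and 2, 3, 2 and 1 called lower in Bub1b_R, Chek1_R, Ppm1g_R and Ppp2r1b_R, with medians of −0.20, −0.13, −0.065 and 1.37e-04. The same test called 5.15%, 8.99%, 5.27% and 3.28% of all probes in either direction in these clones.

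Of 20 tested genes of epithelial identity 5, 6, 3 and 5 rose in Bub1b_R, Chek1_R, Ppm1g_R and Ppp2r1b_R, 3 fell in Chek1_R, and 1 rose in Control_R. The simple-epithelium keratins Krt19, Krt8 and Krt18 were called in all 4 shRNA clones. Krt7, another such keratin, tested among the trophoblast markers below, was called in no clone. Krt19 rose by 1.27, 1.42, 0.72 and 1.26 in these clones, Krt8 by 1.13, 1.17, 0.82 and 0.79, and Krt18 by 0.90, 0.69, 0.63 and 0.67, where Control_R gave 0.51, 0.49 and 0.37, each under 1.5-fold. Krt18 in Ppm1g_R was under that limit without Ppm1g_R −Dox replicate 1 (0.55). Relative to Control_R 2, 2, 0 and 1 genes of this list were called higher and 1, 2, 1 and 0 lower, with medians of −0.049, −0.24, −0.15 and 0.065.

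**Figure D4:**
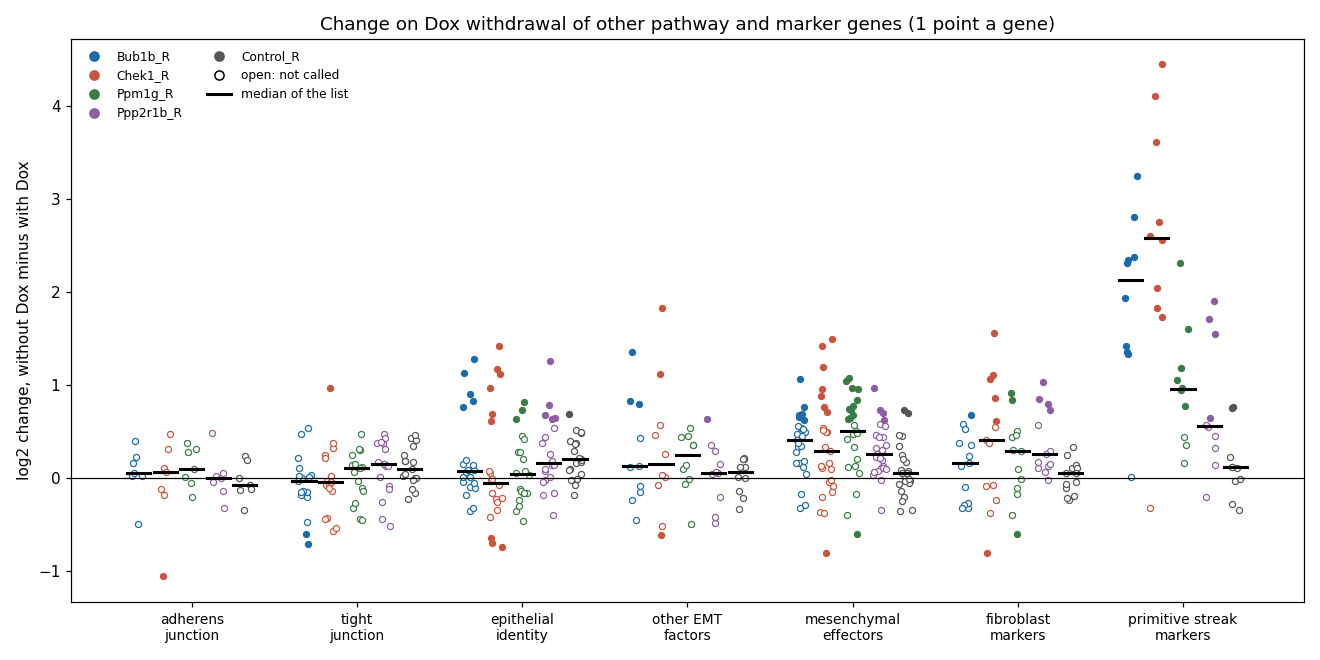
Change on Dox withdrawal (log2) of each tested gene of 7 lists in the 5 clones, 1 point a gene, filled where called, with the list median as a bar. Primitive streak markers reach 4.44 in the arrays labelled Chek1_R, while the medians of the junction lists lie between −0.079 and 0.15.

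Cell type markers moved with these genes, and their part in the changes was not tested. Of 10 tested primitive streak markers 9, 9, 7 and 4 rose in Bub1b_R, Chek1_R, Ppm1g_R and Ppp2r1b_R, and 2 in Control_R. T, the brachyury gene of nascent mesoderm, rose by 2.31, 4.44, 1.05 and 1.90, and by 0.75 in Control_R. Evx1 rose by 2.38, 4.10, 1.60 and 1.54, and Mixl1 by 3.24, 2.75 and 2.31 in the first 3 clones. Mixl1 was detected on at most 10 arrays, and with Dox on 1, 0 and 0 arrays of Bub1b_R, Chek1_R and Ppm1g_R. Evx1 with Dox was detected on 1 array each of Chek1_R and Ppp2r1b_R. The sizes of these changes are therefore set in part by values at background. The mean level of the list ranged from 6.75 to 6.82 with Dox and 8.66 to 8.75 without in Bub1b_R, and from 5.58 to 5.77 with Dox and 5.72 to 5.88 without in Control_R.

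Fibroblast markers are given because Vim and Sparc are abundant in feeder fibroblasts. All 20 had a probe, 13 were tested, 7 were detected on all 30 arrays, and 6 (Col1a2, Col5a2, Lum, Postn, S100a4 and Ogn) were detected on 0 arrays. Of the 13 tested, 1, 5, 2 and 4 rose and 0, 1, 1 and 0 fell in Bub1b_R, Chek1_R, Ppm1g_R and Ppp2r1b_R, and 0 were called in Control_R. The list shares 3 tested genes with the mesenchymal effectors and 1 with the EMT factors. Dcn rose by 0.68, 1.56, 0.83 and 0.84, and Col1a1 by 1.06, 0.91 and 1.03 in the last 3 of these clones. Col5a1 rose by 1.10 in the arrays labelled Chek1_R. Dcn was detected on at most 12 of 30 arrays, so the sizes of its changes are set in part by values at background. The mean level of the 13 genes ran from 7.07 to 7.12 with Dox and 7.46 to 7.49 without in the arrays labelled Chek1_R, from 7.36 to 7.42 and 7.71 to 7.82 in Ppp2r1b_R, from 6.97 to 7.01 and 7.14 to 7.22 in Ppm1g_R, from 7.27 to 7.29 and 7.38 to 7.47 in Bub1b_R, and from 7.00 to 7.07 and 7.02 to 7.07 in Control_R. The 1 fibroblast marker called in Bub1b_R, Dcn, was under 1.5-fold without Bub1b_R +Dox replicate 1 (0.54) or −Dox replicate 1 (0.58). The part of feeder cells in the changes of any clone was not tested.

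Trophoblast markers rose in 3, 3, 2 and 3 of 5 tested genes in the 4 shRNA clones and 0 in Control_R, with Cdx2 at 1.73, 3.97, 1.21 and 1.54, Eomes at 1.93, 1.73, 1.18 and 0.64, and Gata3 at 1.14, 1.17 and 0.85 in Bub1b_R, Chek1_R and Ppp2r1b_R. Both Cdx2 and Eomes are also expressed in the primitive streak region. Eomes was detected on at most 10 arrays, and in Ppp2r1b_R on 0 arrays both with and without Dox. The sizes of the Eomes changes are therefore set in part by values at background. Of 13 tested markers of extraembryonic endoderm 5, 1, 2 and 1 rose and 0, 2, 0 and 1 fell, with Pdgfra higher by 1.44, 2.35, 1.19 and 1.20, Gata6 by 1.29 in Bub1b_R, and Amn lower by 1.52 on the log2 scale in Chek1_R (a change of −1.52). Of 9 tested ESC markers 2, 1, 0 and 4 fell, led by Tcl1 (−0.87 in Bub1b_R and −0.97 in Ppp2r1b_R), Utf1 (−0.63, −0.80 and −0.68 in Bub1b_R, Chek1_R and Ppp2r1b_R) and Esrrb (−0.83 in Ppp2r1b_R).

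Similarity of pattern was measured over the 30 arrays after the mean of each clone had been subtracted, and is a description of arrays that share the Dox contrast. Snai1 correlated with Vim at r = 0.79, and Zeb2 with Vim at 0.75 and with Snai1 at 0.73. The highest values among members were those of Sparc with Zeb2 (0.82) and with Vim (0.82). Cdh1 correlated most negatively with the other junction gene Cldn7 (−0.59), followed by Snai1 (−0.52), Vim (−0.44), Zeb2 (−0.36) and Sparc (−0.28). Outside the members, the genes closest to Vim were Fzd10 (0.98), a Wnt receptor, and Defcr-rs7 (0.98). Closest to Snai1 were St3gal6 (0.93), a sialyltransferase, and Mesp1 (0.93), a factor of early mesoderm, and closest to Zeb2 were Tram1 (0.88) and the chemokine Cxcl1 (0.87).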

How the data were processed

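RNA of 30 samples was hybridized to Illumina Mouse WG8-V2 BeadChips. The authors deposited 1 intensity per probe and array, background-subtracted but without any scaling across arrays, together with a detection p-value. The deposited p-value columns held dates in 46 and 14 cells of 2 arrays, which were converted back or taken from the probe of nearest signal. The labels name lumi, with no version. Depth has no meaning for arrays, whose number limits the precision.

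In R 4.3.3 with limma 3.58.1, neqc (offset 16, quantile, log2) was applied and probes detected on at least 3 arrays were kept. A single fit of 10 condition means (20 residual degrees of freedom) gave all contrasts, with Benjamini-Hochberg adjustment over 15151 probes. Samples were grouped by their titles. The code was tested on simulated arrays. Named genes are the members, the shRNA targets, up to 3 genes per list with the largest mean change among those called in a clone, and the 2 genes most like each called member. Members and lists were chosen with earlier results of these data known. Alternatives were the background correction, scaling, offset, filter, arrays fitted, replicate block, fold limit, the methods' t-test, averaging the tested probes of each gene, and leaving out each array; leaving out the arrays labelled Chek1_R was chosen after seeing the data. Upstream sequences come from RefSeq.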

Additional observations from a re-analysis of the deposited data

Results flagged for a closer look

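The change on Dox withdrawal differed among the 4 shRNA clones for 4 member probes by the F-test: Snai1 (adjusted p = 3.09e-06), Vim (8.71e-05), Cldn6 (0.00130) and Sparc probe ILMN_3136561 (0.0468). The change in a clone differed from that in Control_R, by the test of that difference, for 13 pairs of probe and clone. For Snai1 the log2 differences were 1.55, 1.36, 0.84 and 0.57 in Bub1b_R, Chek1_R, Ppm1g_R and Ppp2r1b_R. For Zeb2 they were 0.86, 0.86, 0.72 and 1.08 in the same clones. For Vim they were 0.79 in Bub1b_R, 1.53 in the arrays labelled Chek1_R and 0.71 in Ppp2r1b_R. Cldn6 in the arrays labelled Chek1_R (−0.54) and Sparc in Ppp2r1b_R (0.31) passed the adjusted p at less than 1.5-fold. The comparisons share the arrays of Control_R, in which Snai1 was itself lower without Dox.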

How the results depend on the processing

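Counts of members changed were within 1.5 times the reported count in 308 of 342 recomputations. Without background correction 1 member was called on withdrawal in Ppp2r1b_R in place of 2, and no Zeb2 call on withdrawal was kept. Relative to Control_R, 1 in place of 2 was called in Ppm1g_R without background correction, with median scaling, an offset of 50, no detection filter, only the arrays compared, the replicate block, the methods' t-test, and without the arrays labelled Chek1_R. In each of these the lost gene was Zeb2. With only the arrays compared, and by the methods' t-test, 0 in place of 2 were called in Ppp2r1b_R relative to Control_R, and the t-test called 1 in place of 2 there on withdrawal. By the methods' t-test at an unadjusted p under 0.05, 6, 7, 3, 4 and 3 members passed on withdrawal in Bub1b_R, Chek1_R, Ppm1g_R, Ppp2r1b_R and Control_R, and 3, 4, 0, 2 and 1 after adjustment. Median scaling called 2 in place of 4 with Dox in Ppp2r1b_R. With no fold limit 5, 6, 3, 4 and 2 were called on withdrawal, 4 in Ppp2r1b_R relative to Control_R, and 6 without and 4 with Dox in Bub1b_R against Control_R. Leaving out an array gave 1 to 2 in Ppm1g_R relative to Control_R, 0 to 1 in Ppm1g_R on withdrawal and 1 to 2 in Bub1b_R with Dox.

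An offset of 50 called 460, 915, 339, 342 and 45 probes on withdrawal in place of 849, 1404, 662, 731 and 167. Median scaling moved the share of higher among called probes on withdrawal from 52.4% to 62.6% in Bub1b_R and from 48.5% to 59.95% in Chek1_R, relative to Control_R from 51.8% to 36.2% in Ppm1g_R, and against Control_R from 48.3% to 64.9% without Dox and 52% to 68.4% with Dox in Bub1b_R, and from 49.4% to 34.0% and 50.2% to 33.9% in Ppp2r1b_R.

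No value whose sign changed was called in either setting, although Cdh1 in Bub1b_R without Dox and Sparc ILMN_3059326 in Ppp2r1b_R with Dox, both against Control_R, had an adjusted p under 0.05 in the reported fit at less than 1.5-fold (−0.21 and 0.22). Under median scaling Cdh1 on withdrawal became −0.11 in Ppm1g_R and 0.0053 in Control_R, Cdh1 relative to Control_R −0.12 in Ppm1g_R, Cdh1 in Bub1b_R against Control_R 0.034 without and 0.15 with Dox, and Cldn6 on withdrawal in Ppm1g_R −0.010. Sparc probe ILMN_3059326 against Control_R became 0.10 in Chek1_R without Dox, 0.061 in Ppm1g_R with Dox and −0.066 in Ppp2r1b_R with Dox. Leaving out an array gave, on withdrawal, −0.033 to 0.097 for Cldn7 and −0.041 to 0.078 for Cdh1 in Ppm1g_R, and −0.37 to 0.025 for Zeb2, −0.026 to 0.13 for Vim and −0.071 to 0.049 for Cdh1 in Control_R. Relative to Control_R it gave −0.090 to 0.15 for Cldn7 in Bub1b_R, −0.029 to 0.096 for Sparc ILMN_3059326 in Chek1_R, and −0.041 to 0.095 for Cdh1 and −0.055 to 0.025 for Sparc ILMN_3136561 in Ppm1g_R. Against Control_R it gave −0.044 to 0.066 for Sparc ILMN_3059326 in Chek1_R without Dox, and with Dox −0.013 to 0.19 for Cldn7 and −0.090 to 0.015 for Cdh1 in Bub1b_R and −0.0068 to 0.21 for Zeb2 and −0.10 to 0.026 for Sparc ILMN_3059326 in Chek1_R.

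Same-numbered arrays of a clone deviated together little (r from −0.0835 to 0.131 over 15 pairs, with 6 correlating best with their own number). The arrays were therefore not paired in the reported fit, although values of this size cannot exclude a weak pairing by number. The replicate block changed no other count of members by over 1.5 times. Signal over background limits Zeb2 most, which was detected on 24 of 30 arrays.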
